A study of Mus musculus with 912 samples.

Results

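Hippocampal nuclei labelled Ivy, Pvalb and Th were compared, each and pooled, with nuclei labelled VIP. The labels were the cell types that the study's classifier had assigned to nuclei of mice kept in the home cage (HC) or killed 1 h after an unfamiliar environment (1hr), and nuclei were kept when at least 4000 genes had a log2(TPM+1) above 1. Of 29 Ivy, Pvalb and Th nuclei 28 passed, namely 13 of 14 Ivy, 8 of 8 Pvalb and 7 of 7 Th, out of 339 nuclei of all types that passed and 912 in the series. They were set against 67 VIP nuclei of 80. The Ivy nucleus left out had 2715 genes and, per the labels, 89137 alignable reads, and the lowest member kept had 5280 genes. Among VIP nuclei the values on either side of the threshold were 3974 and 4460 genes.

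The animals were female C57BL6 mice, 8.7 to 9 weeks old in these groups, with no transgene named in the labels. Each nucleus was sorted after staining for the proteins PROX1, CTIP2 and FOS and was sequenced as its own Smart-seq2 library. The HC group was never exposed, and the 1hr group spent 15 min in a large cage with huts and tunnels new to them and was then returned to its home cage. Ivy came from 7 animals (3 HC nuclei, 8 FOS- and 2 FOS+ nuclei at 1 h), Pvalb from 4 (3, 1 and 4) and Th from 2 (5, 1 and 1), and VIP from 7 (23, 17 and 27). The median total count was 525521 in Ivy, 1296671 in Pvalb, 331481 in Th and 560046 in VIP nuclei. The nuclei within an animal share their source, so an animal was the unit of every test. The plates are called A to E in the order of their dates.

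Ivy cells and neurogliaform cells are GABAergic interneurons known for slow inhibition of pyramidal dendrites, and many make neuropeptide Y and neuronal nitric oxide synthase. Pvalb interneurons fire fast and inhibit the soma and axon of their targets, and VIP interneurons arise in the caudal ganglionic eminence and mostly inhibit other interneurons. Glutamatergic thalamic neurons, by contrast, load vesicles with the transporter encoded by Slc17a6. In the study's own key Th stands for thalamus and not for tyrosine hydroxylase.

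The Th nuclei did not carry the defining genes of an interneuron. Gad2 and Gad1 encode the enzymes that make GABA. Gad2 (chromosome 2, 22622205-22693874, GRCm38) was detected in 13 of 13 Ivy, 8 of 8 Pvalb and 64 of 67 VIP nuclei, and in 1 of 7 Th nuclei, at a log2(TPM+1) of 0.63. Gad1 was detected in 13 of 13 Ivy, 8 of 8 Pvalb and 65 of 67 VIP nuclei, and in 2 of 7 Th nuclei, at 1.81 and 2.99. Slc17a6 was detected in 6 of 7 Th nuclei, against 2 of 13 Ivy, 1 of 8 Pvalb and 6 of 67 VIP nuclei, and Tcf7l2, a transcription factor of thalamic neurons, in 7 of 7 Th nuclei at 8.96 ± 0.23 (mean ± SD of animals, n = 2). The gene Th itself, tyrosine hydroxylase, was detected in 3 of 7 Th, 7 of 13 Ivy, 5 of 8 Pvalb and 19 of 67 VIP nuclei, so the label does not follow that gene. These nuclei are therefore called Th by their label only.

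The types were assigned by the study from the expression of the same nuclei, and the type comparisons below are descriptions of the labelled groups and no independent test that they differ. Of 50 tested genes of the study's own classifier, chosen on these samples, 0 were higher and 8 lower than VIP in Ivy, 3 and 11 in Pvalb and 5 and 15 in Th at an unadjusted p under 0.05. Over all genes tested, 2.45% were higher and 8.69% lower in Ivy, 2.61% and 9.07% in Pvalb, and 2.38% and 4.48% in Th. These shares are edgeR's on summed counts, and the excess of lower genes reversed with limma on mean log2(TPM+1) per animal. Of 9860 genes, limma had 593 higher and 211 lower in Ivy at an unadjusted p under 0.05. It had 885 and 227 in Pvalb, and 626 and 273 in Th. Gate and plate follow type as well. All 8 Pvalb nuclei came from the PROX1- CTIP2- gate, all 7 Th nuclei from the PROX1+ CTIP2- gate on 1 plate (D), and 62 of 67 VIP nuclei from that gate on plates C and D. Only 3 VIP nuclei, in 2 animals of plates B and E, shared the gate and plates of the Pvalb nuclei, so the Pvalb comparison with VIP was mostly one between gates and plates as well.

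**Figure D1:**
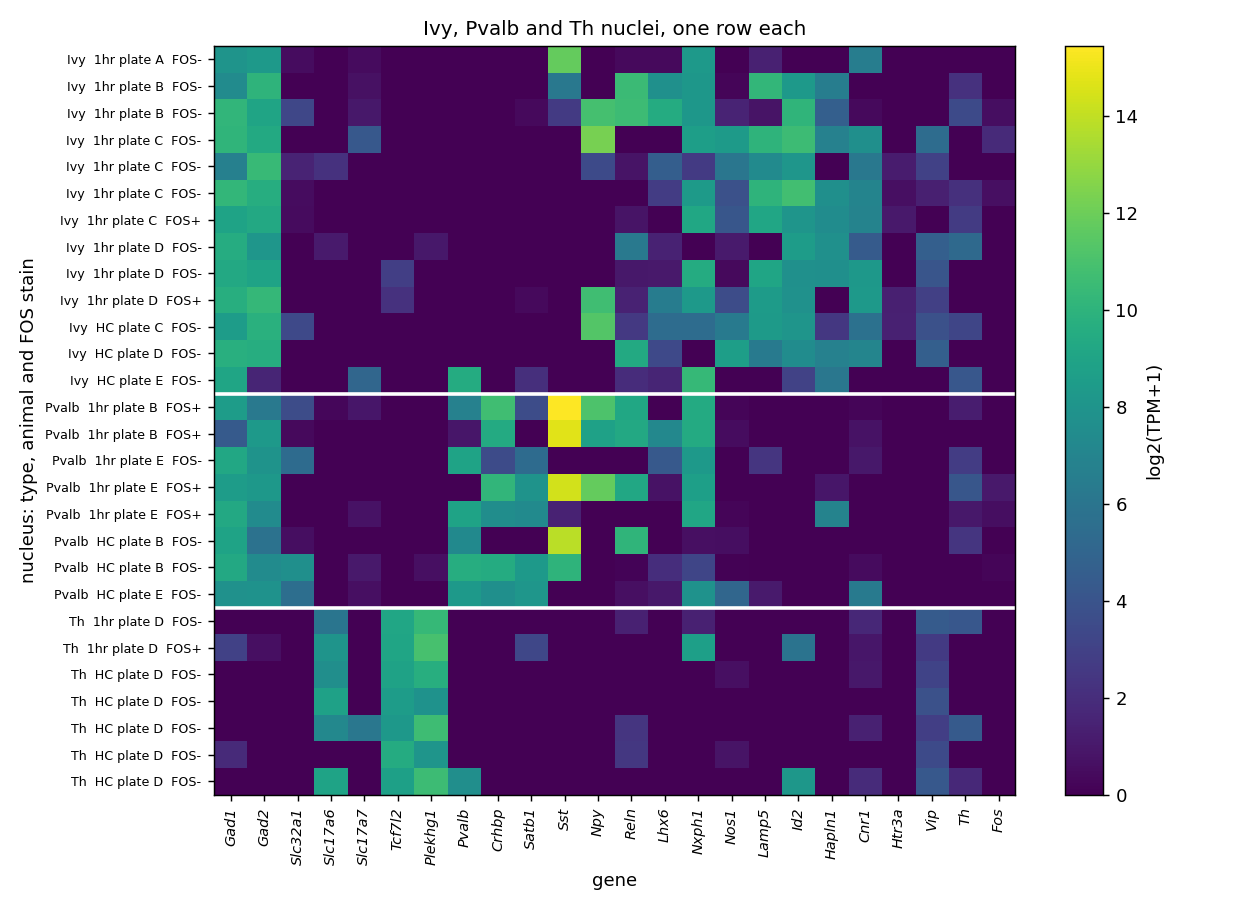
Log2(TPM+1) of 24 genes (columns) in each of the 28 Ivy, Pvalb and Th nuclei (rows, with animal and FOS stain), lighter colours being higher. Tcf7l2 and Plekhg1 are high in all 7 Th nuclei, Gad1 is high in the Ivy and Pvalb nuclei, and Sst is above 10 in 5 of 8 Pvalb nuclei and in 1 Ivy nucleus.

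The pooled comparison was led by genes of the VIP nuclei. Htr3a, the serotonin-gated channel subunit that marks interneurons of the caudal ganglionic eminence, had a mean per animal of 0 in all 4 Pvalb and both Th animals and between 0 and 1.40 in 7 Ivy animals, against 3.91 to 8.18 in 7 VIP animals. No member animal overlapped the VIP animals. Over the sums of the pool it had 6 counts, against 47859 in VIP, a log2 fold change of -11.28 ± 1.13 (SE, edgeR's quasi-likelihood fit, 7 pool and 6 VIP sums). Serpine2, which encodes a secreted inhibitor of serine proteases, was lower by a log2 fold change of -3.43 ± 0.34 in the pool. Its level per animal was 4.88 to 8.04 in Ivy, 4.63 to 5.28 in Pvalb and 4.39 to 5.44 in Th, against 4.93 to 9.86 in VIP, so the animals' means overlapped although the sums of at least 2 nuclei did not.

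These 2 genes were the only ones called by edgeR at a Benjamini-Hochberg adjusted p under 0.05, 0.0198% of 10117 genes tested, and the unadjusted p was under 0.05 for 480 (4.74%). DESeq2 called 87 genes in the same sums. Without the Th nuclei the same 2 genes were called, 0.0207% of 9669 genes, with 456 (4.72%) at an unadjusted p under 0.05 and 112 called by DESeq2, and the fold changes were -10.96 ± 1.23 for Htr3a and -3.45 ± 0.38 for Serpine2. With the animal as a block, 1 gene was called in the pool of 3 types and 2 in the pool without Th, and none of them was Htr3a or Serpine2. The pool sums held 2 to 6 nuclei and the VIP sums 2 to 23, and the part of that difference in these counts was not tested.

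The VIP label covered nuclei of unlike Vip content. Vip was detected in 61 of the 62 VIP nuclei of plates C and D, with a median of 12.6 and a highest value of 15.2, and in 0 of the 5 VIP nuclei of other plates. On the same 2 plates, Vip was detected in 8 of 9 Ivy nuclei, at up to 5.46, and in 7 of 7 Th nuclei, at 2.60 to 4.40, and 21 of the 62 VIP nuclei lay at or below the highest of them. In all, 17 of 18 nuclei of types other than VIP on these plates had Vip. They included the DG nucleus of plate D, at 2.92, and its Sub nucleus, at 1.87. On the other plates 0 of 254 nuclei of types other than VIP had a Vip count. The Ivy nuclei of plates C and D were those of the PROX1+ CTIP2- gate, and all Th nuclei were on plate D, so plate and gate cannot be told apart, and the source of low Vip was not tested. Sst was also detected in nuclei of other types. On plate B, 37 of 40 CA1, CA3, DG and Sub nuclei had a value above 0, with a median of 5.44 and a highest value of 11.0. On plate A, 33 of 72 CA1 nuclei had Sst, up to 11.9, and on plate E CA1 nuclei reached 8.53 and Sub nuclei 7.35.

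With the VIP nuclei of the PROX1+ CTIP2- gate alone, a choice made after seeing that the others had no Vip count, edgeR called 51 genes in the pool of 3 types (3 higher, 48 lower) and 75 without Th (2 higher, 73 lower). The genes named next were chosen after their values were seen. Without Th, Penk, which encodes enkephalin, was lower by -11.32 ± 1.02 on the log2 scale. Cxcl14, a chemokine, had 2 counts against 26479, and Npy2r, a neuropeptide Y receptor, 1 against 9113. Penk was detected in 5 of 13 Ivy, 1 of 8 Pvalb, 3 of 7 Th and 50 of 67 VIP nuclei.

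**Figure D2:**
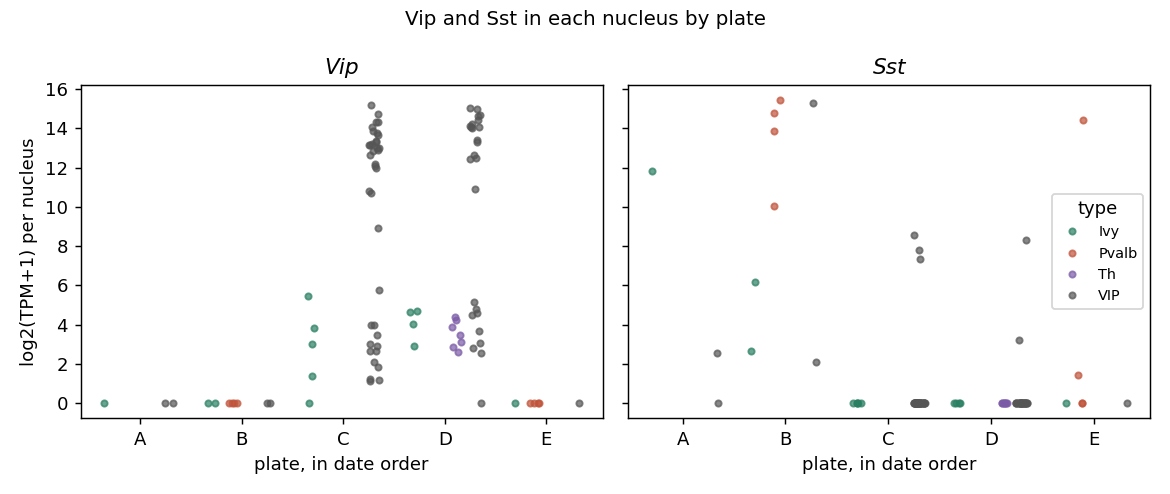
Log2(TPM+1) of Vip and Sst in each nucleus (points, coloured by type) against the plate. Vip values between 1 and 5.5 in Ivy and Th nuclei occur on plates C and D alone, and 5 Pvalb nuclei have Sst above 10, as does the Ivy nucleus of plate A at 11.8 and a VIP nucleus at 15.3.

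Plekhg1, which encodes a guanine nucleotide exchange factor, was detected in 7 of 7 Th nuclei, with 10.6 and 9.36 as the means of the 2 animals, and in 3 of 67 VIP nuclei. It had 3512 counts in Th and 3 in VIP, a library-scaled ratio of 18184 (95% interval 6217 to 88216, counting error only). In 16 of 15214 genes, 0.105%, the adjusted p was under 0.05, 7 higher and 9 lower in Th. Unadjusted p was under 0.05 for 362 genes higher (2.38%) and 681 lower (4.48%), and DESeq2 called 1089 genes.

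The genes higher in Th by the naming rule were of several kinds. Slc17a6, the vesicular glutamate transporter, had animal means of 6.53 and 7.01 and a log2 fold change of 10.76 ± 1.76. Prkcd, protein kinase C delta, had a log2 fold change of 10.42 ± 1.68, and Vipr2, a receptor for the peptide VIP, one of 10.61 ± 1.46. Kitl, the ligand of the receptor KIT, had 641 counts against 1, a ratio of 9956 (95% interval 1781 to 393863). Frem3, an extracellular matrix gene, had 85 against 1, a ratio of 1320 (95% interval 231 to 52754), from 2 of 7 nuclei. Atp2b1, a plasma membrane calcium pump, was detected in 7 of 7 Th and 61 of 67 VIP nuclei and differed by 3.03 ± 0.50.

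Of the 9 genes lower in Th, 4 belonged to the GABAergic neuron list. Gad2 had 1 count against 27616, a ratio of 1778 lower (95% interval 319 to 70227), and Gad1 2 against 36315, a ratio of 1169 lower (95% interval 324 to 9653). Dlx1, a transcription factor of the ganglionic eminences, had 2 against 10856, a ratio of 349 lower (95% interval 96.7 to 2886). The transcription factors Zeb2 and Tcf4 were lower by -6.34 ± 0.84 and -5.14 ± 0.73. Nfib, another transcription factor, and Dynlrb1, a dynein light chain, had no count in Th and were at least 264-fold and at least 127-fold lower, on a floor of 3 counts over the group.

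Of 10 measured genes of the GABAergic neuron list, 4 were called lower, 9 had an unadjusted p under 0.05 and lower values, and the median difference in mean log2(TPM+1) was -4.31, against -0.06 over all genes tested. Of 11 measured thalamus genes 9 were tested and 3 were called higher, 7 were higher at an unadjusted p under 0.05, and the median difference was 6.64. Those 7 were Slc17a6, Plekhg1 and Prkcd, above, with Tcf7l2, Rora, Lef1 and Zic1, which were not called. The summed level of the thalamus list was 10.6 to 12.4 in Th nuclei, against 0.15 to 8.33 in Ivy, 1.04 to 7.46 in Pvalb and 0 to 10.1 in VIP, and only in Th was none of its 11 genes at 0 in every nucleus among these 4 types. Of 4 habenula genes tested 1 was higher and 2 lower at an unadjusted p under 0.05, against 2.38% and 4.48% of all genes.

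All Th values rest on 2 animals of 1 plate. Leaving out either of the 2 Th animals left 0 calls, 1 Th sum being then assumed to vary like the other groups, as did leaving out the 1hr animal of plate C. With the animal as a block 1 gene was called, and it was none of the 16.

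**Figure D3:**
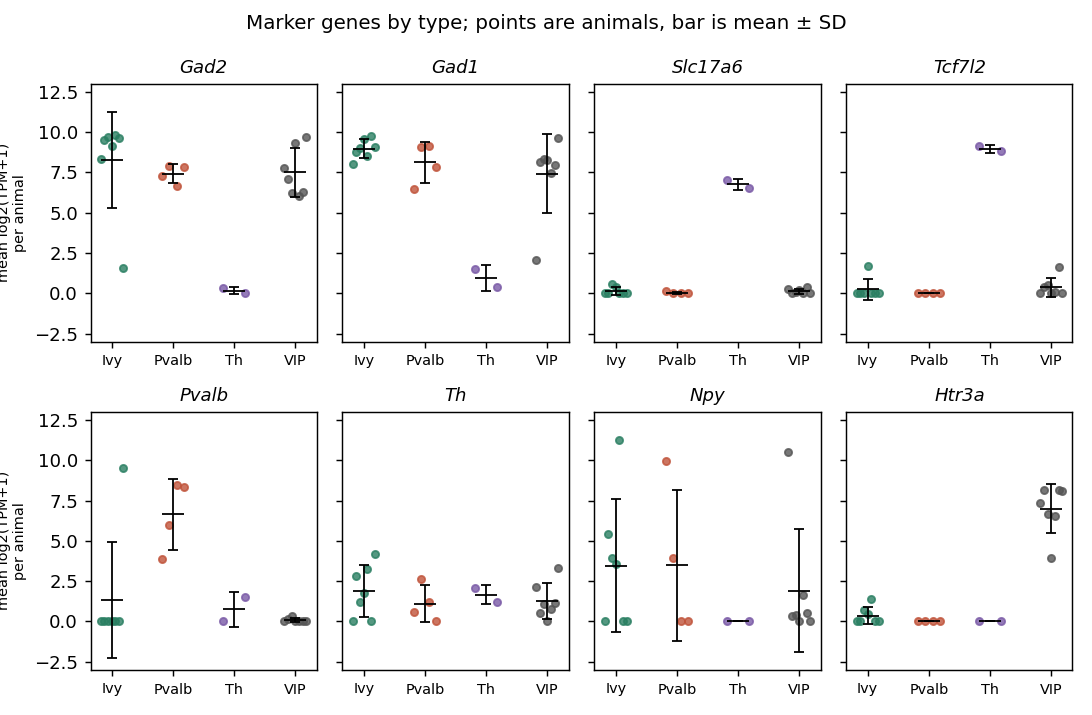
Mean log2(TPM+1) per animal (points) of 8 marker genes in each type, with the mean ± SD over animals as bars. In both Th animals Gad2 lies near 0, Gad1 below 3, and Slc17a6 and Tcf7l2 above 6, and Htr3a is above 3 in the VIP animals alone.

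In the Ivy nuclei, Gad1 was 8.95 ± 0.60 (n = 7 animals) and the marker genes split the group. Npy, which encodes neuropeptide Y, was detected in 5 of 13 nuclei, at 10.7 to 12.3 in 4 of them and 3.44 in the fifth. Lamp5, a lysosomal membrane protein of neurogliaform cells, was detected in 11 of 13, Id2, an inhibitor of bHLH factors, in 12 of 13, and Hapln1, a link protein of the extracellular matrix, in 10 of 13. Nos1, neuronal nitric oxide synthase, Reln, the secreted protein reelin, and Lhx6, a transcription factor of the medial ganglionic eminence, were each detected in 11 of 13. Where detected, Nos1 ran from 0.24 to 8.67, Reln from 0.42 to 10.6 and Lhx6 from 0.42 to 9.49, so their levels were far from uniform. One HC nucleus of plate E stood apart, with Pvalb at 9.52, Gad2 at 1.59 and no Lamp5 count, and one 1hr nucleus of plate A had Sst at 11.8, within the range of CA1 nuclei on that plate, Arc at 6.92 and no Id2, Nos1 or Hapln1 count.

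Against VIP, 0 genes (0% of 15214) were called by edgeR, with 372 higher (2.45%) and 1322 lower (8.69%) at an unadjusted p under 0.05, while DESeq2 called 967. The fit had 3 Ivy sums with 9 of the 13 nuclei. Nrxn3, a presynaptic adhesion protein, came nearest to a call, at -2.70 ± 0.37. With the animal as a block, 1 gene was called.

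Of the 11 Ivy and neurogliaform genes 9 were tested, and 4 were higher and 1 lower at an unadjusted p under 0.05, with a median level difference of 2.12, against 0.12 over all genes. The 4 were Id2, at 3.73 ± 0.99, Hapln1, at 6.52 ± 2.19, Gabrd, the delta subunit of extrasynaptic GABA-A receptors, and Sv2c, a synaptic vesicle protein. The Hapln1 means of the 7 Ivy animals had a lowest value of 0, a median of 5.51 and a highest value of 6.77, and no VIP animal exceeded 0.72. Gabrd had 772 counts in Ivy sums and 1 in VIP sums, and was detected in 6 of 13 Ivy and 1 of 67 VIP nuclei. Lhx6 was higher by 8.67 ± 1.66 and was detected in 20 of 67 VIP nuclei. None of these genes was called.

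The VIP interneuron list had 7 of 12 genes lower and 0 higher in Ivy at an unadjusted p under 0.05, with a median level difference of -2.62, and the caudal ganglionic eminence list 4 of 8 lower, with -3.34. Cnr1, the cannabinoid receptor, was detected in 11 of 13 Ivy nuclei, at 4.78 ± 3.22 against 8.68 ± 0.56 in VIP animals. Among synaptic and channel genes, 8 of 23 glutamate receptor genes were lower and 0 higher at an unadjusted p under 0.05. Grin2b, an NMDA receptor subunit, was at -0.92 ± 0.31 and Gria3, an AMPA receptor subunit, at -5.30 ± 1.22. The Ivy sums left out the Ivy nuclei of plates A and E, which had Gria3 at 6.71 and 9.44. The other Ivy nuclei had at most 2.41, so the Gria3 means of Ivy and VIP animals overlapped. The potassium channel subunit Kcna1 was 4.97 ± 1.44 in Ivy and 0.85 ± 0.61 in VIP animals, but its unadjusted p was above the threshold.

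The Pvalb nuclei had Gad1 at 8.11 ± 1.26 (n = 4 animals) and no Htr3a, Id2 or Vip count. Pvalb, the calcium-binding protein parvalbumin, was detected in 7 of 8, with animal means of 3.85, 5.97, 8.34 and 8.48, against 1 of 13 Ivy, 1 of 7 Th and 2 of 67 VIP nuclei. Crhbp, which encodes the protein that binds corticotropin-releasing hormone, was detected in 7 of 8 Pvalb nuclei and in 0 of 13 Ivy, 0 of 7 Th and 0 of 67 VIP nuclei.

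The peptide gene Sst, somatostatin, varied widely under the label. It was 15.4, 14.8, 14.4 and 13.9 in 4 of the 8 nuclei. Of these 4, 3 had Pvalb above 0 (highest 7.32), all had Reln between 9.19 and 10.1, and 3 had Npy between 8.82 and 11.8. Another nucleus, of plate B, had Sst at 10.1, below the highest CA3 nucleus of that plate, with Pvalb at 9.63, Reln at 0.12 and no Npy. The other 3 had Sst of at most 1.45, Pvalb between 8.34 and 8.97 and no Npy. Satb1, a chromatin factor of medial interneurons, was 5.37 to 8.10 in those 3, 8.29 in the nucleus with Sst at 10.1, and 0, 0, 3.58 and 7.91 in the 4 of highest Sst. Of the 4 FOS+ Pvalb nuclei 3 were among the 4 of highest Sst. The split was made after the values were seen and is given with no test.

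Against VIP, 0 genes (0% of 15214) were called by edgeR, with 397 higher (2.61%) and 1380 lower (9.07%) at an unadjusted p under 0.05, and DESeq2 called 913. Adarb2, Htr3a and Nfib came nearest to a call. Crhbp, which was not called, had 6824 counts against 0, at least 12638-fold higher on a floor of 3 counts over the VIP group. That floor covers counting error only, and PCR copies are included in the counts. The fit had 3 Pvalb sums with 7 of the 8 nuclei.

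Of 11 Pvalb genes 10 were tested, and 4 were higher and 1 lower at an unadjusted p under 0.05, with a median level difference of 2.33, against 0.22 over all genes. The 4 were Crhbp, Pvalb, at 8.23 ± 2.16, Syt2, a fast calcium sensor of vesicle release, at 7.96 ± 1.86, and Kcnc2, a potassium channel subunit of fast-spiking cells, at 1.14 ± 0.40. Kcnc2 means were 6.90, 7.13, 8.22 and 8.80 in Pvalb animals and 3.78 to 6.09 in VIP animals, which did not overlap, but the Th animals had 7.50 and 8.28. Gria3 was 8.03 to 9.60 in the 4 Pvalb animals and 1.13 to 8.38 in VIP, a log2 fold change of 2.66 ± 0.87. The 3 Pvalb sums did not overlap the VIP sums for Gria3, whereas the animal means did.

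The caudal ganglionic eminence list had 6 of 8 genes lower in Pvalb at an unadjusted p under 0.05, against 4 of 8 in Ivy. Adarb2, an RNA-binding protein of caudal interneurons, was detected in 5 of 8 Pvalb and 67 of 67 VIP nuclei, at 0.43 ± 0.18 and 8.87 ± 1.17. These differences between lists were not tested against each other, and the Ivy and Pvalb comparisons share the VIP sums.

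**Figure D4:**
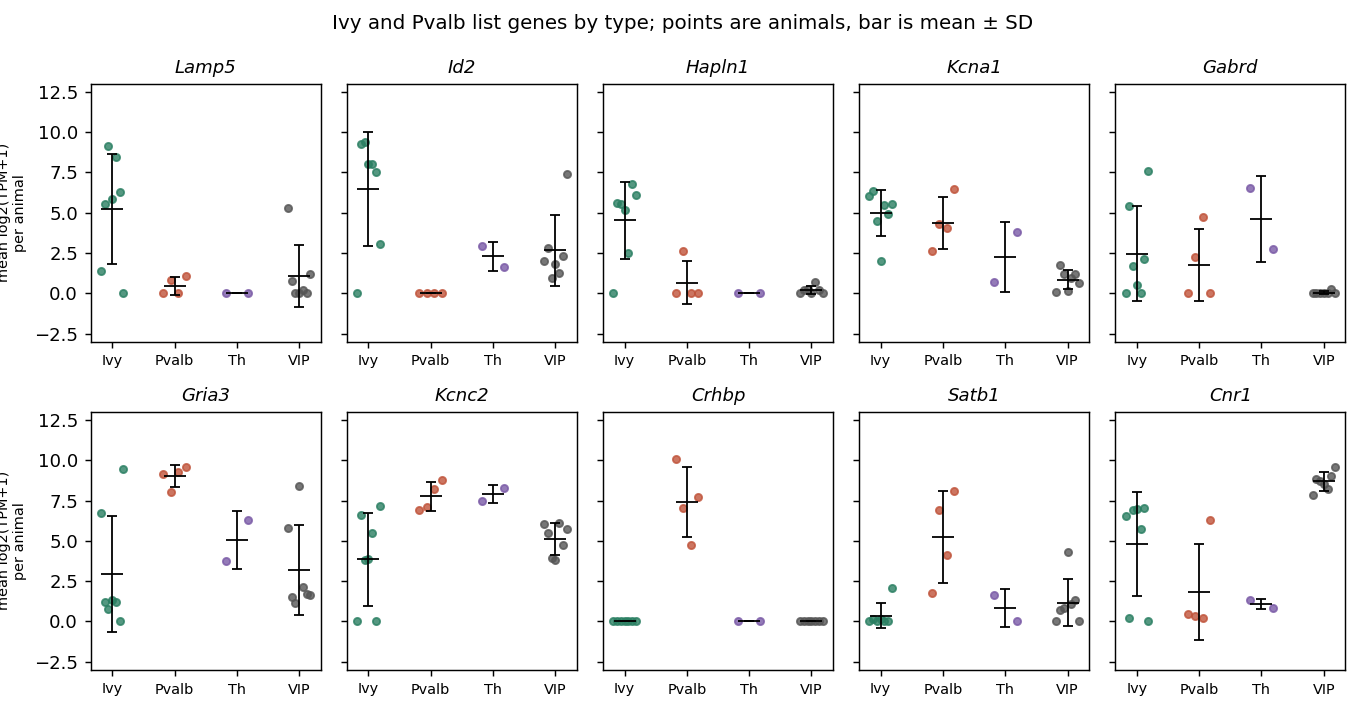
Mean log2(TPM+1) per animal (points) of 10 genes of the Ivy and Pvalb lists, with the mean ± SD over animals as bars. Crhbp is above 4 in the 4 Pvalb animals and 0 in the other animals, and Id2 is 0 in the Pvalb animals.

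Receptors and channels were described from lists of their own. Of 19 neuromodulator receptor genes tested, 7 were lower in Ivy, 8 in Pvalb and 4 in Th at an unadjusted p under 0.05, and 0 were higher in any of them. The shares lower over all genes were 8.69%, 9.07% and 4.48%. Counts and shares are edgeR's, and over all genes the excess of lower genes reversed with limma. Whether the list counts keep their direction with limma was not tested. Npy1r, a neuropeptide Y receptor, was detected in 11 of 13 Ivy nuclei at 2.32 ± 1.29 and in 4 of 8 Pvalb nuclei at 0.36 ± 0.15, against 56 of 67 VIP nuclei at 4.67 ± 2.61 (means of animals). Its log2 fold change against VIP was -3.67 ± 1.60 in Ivy and -7.40 ± 1.97 in Pvalb. Chrm1, a muscarinic acetylcholine receptor, was lower in Pvalb by -2.77 ± 1.15, with animal means of 1.11 to 2.55 against 1.87 to 7.06 in VIP, which overlapped.

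Cacna2d1, an accessory subunit of voltage-gated calcium channels, was detected in 11 of 13 Ivy and 5 of 7 Th nuclei, at 4.60 ± 3.28 and 6.28 ± 2.58, against 26 of 67 VIP nuclei at 1.07 ± 1.01 and 4 of 8 Pvalb nuclei at 0.30 ± 0.31. The log2 fold change against VIP was 4.01 ± 1.27 in Ivy, 3.61 ± 1.34 in Th and -5.09 ± 1.72 in Pvalb, and none of these was called, nor were the 3 values tested against each other. Cacna2d1 was picked as an example, and other calcium channel genes went both ways. In the pool without Th, Cacna1a was at 1.25 ± 0.90 and Cacna1b at -0.89 ± 0.78 against VIP, neither of them called. In the potassium channel list of 29 genes, Ivy had 0 higher and 4 lower, Pvalb 1 and 2, and Th 2 and 1, against 2.45% and 8.69%, 2.61% and 9.07%, and 2.38% and 4.48% over all genes. Kcnip4, which modulates A-type potassium channels, was lower in Ivy by -6.76 ± 1.88. In Th, Gria1, an AMPA receptor subunit, was lower by -3.48 ± 1.39. Of 23 glutamate receptor genes, 8 were lower in Ivy, 1 in Pvalb and 4 in Th at an unadjusted p under 0.05, and 1, Gria3, was higher in Pvalb. These 3 comparisons share the VIP sums.

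Ivy and Pvalb were compared directly, and 0 genes (0% of 15214) were called by edgeR, while DESeq2 called 1200. At an unadjusted p under 0.05 edgeR had 1964 (12.9%), of which 969 were higher and 995 lower in Ivy. On a floor of 3 counts over the group, Id2 was at least 1596-fold higher in Ivy (4574 counts against 0). Crhbp was at least 2173-fold lower on that floor (0 against 6824), which covers counting error only. At that unadjusted threshold, 3 of 9 tested genes of the Ivy list were higher in Ivy, Id2, Lamp5 and Nos1. Of the Pvalb list 5 of 10 were lower, Crhbp, Pvalb, Nefh, Syt2 and Kcnc2. None of them was called. Nfib was higher in Ivy by 9.07 ± 1.17, with animal means of 5.24 to 9.01 in Ivy and 0 to 2.52 in Pvalb.

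The FOS stain was not used to choose the members. Fos itself, the transcript of the stained protein, was not detectably higher in FOS+ nuclei at this depth. The mean per animal was 0.205 ± 0.410 in the 4 FOS+ animals and 0.222 ± 0.361 in the 5 FOS- animals of Ivy and Pvalb at 1 h (difference -0.017, exact permutation test over animals, two-sided, p = 0.841, smallest possible 0.00794). The 4 FOS+ animals were also among the 5 FOS- animals. The test treated the arms as separate animals and did not use this pairing. A Fos count was seen in 0 of 2 Ivy and 2 of 4 Pvalb FOS+ nuclei, and in 3 of 8 Ivy and 0 of 1 Pvalb FOS- nuclei. In VIP nuclei at 1 h it was seen in 10 of 27 FOS+ and 1 of 17 FOS-.

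No gene was called between FOS+ and FOS- (0% of 8286 genes, 576 or 6.95% at an unadjusted p under 0.05, DESeq2 275), nor between 1 h FOS- and home cage (0%, 500 or 6.03%, DESeq2 169). Stain and type were mixed, since FOS+ held 4 Pvalb and 2 Ivy nuclei and FOS- held 1 and 8, and on plate B all FOS+ nuclei at 1 h were Pvalb and all FOS- nuclei Ivy. With type as a term edgeR called 0 of 8189 genes between the stains, with 590 at an unadjusted p under 0.05. Only 3 of the 24 immediate early genes passed the filter on low counts. Nr4a1, an orphan nuclear receptor of the immediate early set, was detected in 4 of 4 FOS+ Pvalb nuclei, 0 of 2 FOS+ Ivy nuclei, 3 of 8 FOS- Ivy nuclei and none of the 6 home-cage nuclei of both types. Its log2 fold change between FOS+ and FOS- was -1.87 ± 2.55 (adjusted p = 0.999). Homer1, a postsynaptic scaffold, was detected in 6 of 6 FOS+ nuclei, in 7 of 8 Ivy and 1 of 1 Pvalb FOS- nuclei and in 5 of 6 home-cage nuclei. The animals of the exposure comparison differ between its arms, and size factors moved its median over all genes from 0.12 with TMM to -0.06, and that of the FOS comparison from 0.01 to 0.17.

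Ivy nuclei were found in both PROX1 gates, 9 from PROX1+ and 4 from PROX1-. Prox1 RNA was detected in 4 of 13, all from the PROX1+ gate. No gene was called (0% of 6920 genes, 381 or 5.51% at an unadjusted p under 0.05, DESeq2 348). Vip had 50 counts in the PROX1+ sums and 0 in the PROX1- sums, the same gate and plates on which Vip was detected in other types. Nos1 had 1198 counts against 21, a log2 fold change of 7.23 ± 2.31 (adjusted p = 0.628). The gate and the plate date cannot be told apart.

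The number of genes detected per nucleus averaged 6919 ± 711 in 7 Ivy animals and 7381 ± 894 in 4 Pvalb animals, against 6197 ± 375 in 7 VIP animals (exact permutation test, two-sided, p = 0.0408 and p = 0.00606, adjusted over 3 tests 0.0612 and 0.0182). In 2 Th animals it was 6367 ± 194 (p = 0.556, smallest possible 0.0278). Most Ivy animals, some Pvalb animals and the 2 Th animals also gave VIP nuclei. The test treated the groups as separate animals and did not use this pairing. In that unpaired test the Ivy difference did not pass after adjustment, and the Pvalb difference did. Depth moved with it in Pvalb, as the median total counts above show, and its part was not tested.

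Markers of other cells were low or scattered. Of the 6 astrocyte genes 3 were at 0 in every Ivy nucleus, 3 in every Pvalb and 3 in every Th nucleus. The microglia list was at 0 for 4 of 6 genes in Pvalb and in Th. The summed astrocyte level was 0 to 8.51 in Ivy, 0.30 to 2.82 in Pvalb and 1.01 to 9.57 in Th, against 0 to 10.9 in VIP nuclei, and its part in the comparisons was not tested.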

How the data were processed

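Counts were deposited by the authors as RSEM expected counts per gene, aligned with Bowtie to mm10 per the labels; all were whole, and none was rounded further. The log2(TPM+1) values were also deposited by the authors and were used for levels and detection. The annotation release is not given in the sources used here. Members and gene lists were chosen with earlier results of these data known. Genes were named by a rule: up to 8 called genes each way whose sums do not overlap, predicted genes left out, the marker genes, and genes of the 29 lists as examples. Some genes that the rule selects are not reported here.

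Counts were summed per animal (exposure, plate date and mouse number) and group, with at least 2 nuclei per sum for types and at least 1 for the stain and gate comparisons, and compared with edgeR 4.0.16 (R 4.3.3; TMM, filterByExpr, glmQLFit, glmQLFTest, Benjamini-Hochberg, threshold 0.05). DESeq2 1.42.0 and limma 3.58.1 served as alternatives, and the scripts were tested on simulated data. Levels are means over nuclei and then over animals. Animals of a group mostly came from different plates, so p-values measure the spread between animals and plates together. Total counts ran from 205544 to 1884049 per member nucleus; PCR copies are included, so intervals cover counting error only. Gene positions are GENCODE vM21 on GRCm38, matched by symbol.

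Sums of 1 animal in several groups were paired by the labels. Their deviations from group means correlated at 0.007 on average over 7 pairs of types, 0.032 over 4 pairs of the pool of 3 types, 0.021 over 3 pairs of the pool without Th and 0.031 over 4 pairs of FOS stains. Neither the main fits nor the exact permutation tests used this pairing.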

Additional observations from a re-analysis of the deposited data

Results flagged for a closer look

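Of 65 groups of 4 to 10 animals tested for a single distant animal, 23 had one. The cut-off would flag about 1 in 20 groups of normally distributed values. Several of the flagged groups were 0 in all animals but 1, a pattern that is always flagged. That rate does not apply to them, and the share of groups flagged is not set against it. Values are means of log2(TPM+1) per animal. Among Ivy animals, Gad2 was lowest (1.59, the next 8.30) and Pvalb highest (9.52, the others 0) in the HC animal of plate E, which also had the highest Vipr2 (5.81), each from 1 nucleus. The 1hr animal of plate A, also 1 nucleus, had the lowest Dlx1 (0) and Zeb2 (2.96) and the highest Prkcd (7.55) and Serpine2 (8.04). Atp2b1 was lowest at 2.77 in the 1hr animal of plate B, Frem3 was highest at 5.70 in the HC animal of plate C, and Plekhg1 was highest at 0.324 in the 1hr animal of plate D.

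Among Pvalb animals, Kitl (0.737) and Prkcd (0.810) were highest in the 1hr animal of plate E, Plekhg1 (0.321) in the HC animal and Slc17a6 (0.138) in the 1hr animal of plate B, with 0 in the others. Among VIP animals, the 1hr animal of plate A had the highest Npy (10.5) and Vipr2 (0.775) and the lowest Gad1 (2.04), and its VIP nuclei had no Vip count. Htr3a was lowest at 3.91 in the HC animal of plate B and Tcf4 lowest at 5.66 in the HC animal of plate E. Frem3 was highest at 0.0468, Kitl at 0.0871 and Plekhg1 at 0.290, each in 1 animal. Among the 4 FOS+ animals Fos was highest at 0.820 in the 1hr animal of plate E.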

How the results depend on the processing

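Counts of calls depended on the tool and on the sums. DESeq2 gave 967 (Ivy), 913 (Pvalb), 1089 (Th), 1200 (Ivy against Pvalb), 87 and 112 (the pools of 3 and 2 types), 275 (FOS stain), 169 (exposure) and 348 (gate) calls. limma on mean log2(TPM+1) gave 18, 30, 56, 64, 12 and 8 in the first 6 comparisons. Against VIP, at an unadjusted p under 0.05, limma had more genes higher than lower in Ivy, Pvalb and Th, and edgeR more lower. With at least 1 nucleus per sum the counts were 6 (Ivy), 3 (Pvalb), 2 (Ivy against Pvalb), 1 and 1 (pools). With no filter they were 6 (Pvalb) and 5 (Th), and with exposure as a term 5 (Th). The PROX1+ CTIP2- gate alone gave 8 (Ivy), 7 and 12 (pools), and with VIP nuclei of that gate alone, chosen after seeing the data, 3, 9 and 4 (Ivy, Pvalb, Th), 51 and 75 (pools). FOS- nuclei alone gave 1 in the pool of 2. The cause of these changes was not tested. The replicate block (animal) gave 1 (Ivy), 1 (Th) and 1 (pool of 3) and changed no other count of calls; 0 calls of Th and of the pools were shared with the fit without it. It could not be fitted for exposure, whose arms hold different animals, or for the gate.

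Leaving out 1 animal gave 0 to 2 calls for Pvalb, 0 to 8 for Th, 0 to 1 for Ivy against Pvalb, 2 to 7 for the pool of 3 and 2 to 6 for the pool of 2, and 0 for the others. For Th it was 0 without any of the 1hr animals of plates C and D or the HC animal of plate D, 8 and 6 without the 1hr animal of plate A and the HC animal of plate B and 4 without the HC animal of plate C. For the pool of 3 it was 7 without the 1hr animal of plate A or the HC animal of plate B and 4 without the 1hr animals of plates C or E, and for the pool of 2 it was 6 without the 1hr animal of plate A. The genes-detected difference ran from 607 to 850 for Ivy (p 0.013 to 0.113), 888 to 1514 for Pvalb and -46.1 to 282 for Th, and the Fos difference from -0.278 to 0.203. Among the reversed values, Fos was 0.0661 and 0.203 without the 1hr animals of plates B and C. With any count as detection the genes-detected difference was 692 for Ivy (p = 0.190, exact), 1780 for Pvalb (p = 0.0152, exact, adjusted 0.0455) and -340.0 for Th, and the share of nuclei with Fos differed by 1.67 percentage points.

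For the called Th genes named, every alternative run gave the same sign, but the call was often lost: Frem3 was called in 2 of 15, Vipr2 in 3 of 15, Kitl in 4 of 15, Dynlrb1 in 3 of 16, Dlx1 in 4 of 16, Slc17a6, Prkcd and Atp2b1 in 5 of 16, Gad1 and Tcf4 in 7 of 16, Nfib in 9 of 16, Plekhg1 and Zeb2 in 11 of 16 and Gad2 in 12 of 16. The pooled genes Htr3a and Serpine2 kept their sign in 20 of 20 alternatives in each pool, with Htr3a called in 19 in each and Serpine2 in 16 and 15. Uncalled marker folds changed sign: Gad2 0.15 (Pvalb, limma), Pvalb 6.41 (Ivy, 1 nucleus per sum) and -4.96 to 7.74 (Th, leaving out 1 animal, lowest without the HC animal of plate D), Th -0.71 (Pvalb, 1 nucleus per sum) and -0.81 to 0.59 (Pvalb, leaving out 1 animal, lowest without the 1hr animal of plate E), and Npy -0.98 (Ivy) and -0.94 (Pvalb) with exposure as a term, and -0.28 to 5.08 (Pvalb, leaving out 1 animal, lowest without the 1hr animal of plate B). The common dispersion was 1.86 to 3.12 over these fits, and 21 of 24 immediate early genes had too few counts to be tested for the FOS stain.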
